A study of Mus musculus with 6 samples.

Results

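Insulin receptor substrates and FOXO factors were examined as a group of 10 genes: *Insr*, *Irs1*, *Irs2*, *Pik3r1*, *Pik3ip1*, *Foxo1*, *Foxo3*, *Foxo4*, *Sesn1* and *Sesn3*. They were chosen by name, with earlier results of these data known, and all 10 were found among the 55487 gene identifiers of the deposited count table. Bulk RNA sequencing had been performed on 6 cultures labelled as skin endothelial cells (ECs) from C57BL/6 mice. Of these, 3 had been kept in 5 mmol/L glucose (normal glucose) and 3 in 20 mmol/L glucose (high glucose) for 48 hours. Each isolation pooled the skin of 4 to 6 mice aged 2 to 3 months and enriched for CD31, and the study counts its replicates by mice. No source used here says whether each replicate was a separate isolation. P values therefore measure the spread between these cultures, which may be technical. The insulin content of the medium is not given in the sources used here, and none of the 6 cultures is labelled as an osmotic control.

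The insulin receptor, encoded by *Insr*, phosphorylates the adapter proteins Irs1 and Irs2, which dock phosphoinositide 3-kinase (PI3K). PI3K activates the kinase AKT, and AKT phosphorylates the forkhead factors Foxo1, Foxo3 and Foxo4 and keeps them out of the nucleus. When insulin signaling is low, FOXO factors enter the nucleus and raise the transcription of stress and fasting genes. *Insr*, *Irs2*, *Pik3ip1*, *Sesn1* and *Sesn3* are themselves known FOXO targets, so the pathway contains a feedback loop. In vascular ECs, this pathway is best known for its control of nitric oxide production.

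Levels are given as CPM, counts scaled to a common library size after TMM normalization. The endothelial label was checked against defining genes before the comparisons. *Pecam1*, which encodes CD31, had between 9 and 19 counts per library, *Cldn5* at most 4, and *Sox17* 0 in every library, with totals of 120192466 to 146881356 counts. Of 15 endothelial markers, 10 were tested, 3 were lower and 2 higher in high glucose, and their summed level lay between 73.95 and 77.14 CPM in normal and between 57.14 and 57.73 CPM in high glucose. Most of this sum came from *Flt1*, with means of 55.3 CPM in normal and 38.4 CPM in high glucose. It fell by 0.53 on the log2 scale (adjusted P = 2.96e-05, edgeR). In the same order, *Egfl7* had means of 11.1 and 9.44 CPM, *Kdr* 4.96 and 5.50 CPM, *Tek* 1.29 and 2.04 CPM, and *Cdh5* 1.80 and 0.876 CPM. On the log2 scale, *Cdh5* fell by 1.03 and *Tek* rose by 0.66 (adjusted P = 0.000139 and 0.00219, edgeR). Fibroblast markers summed to between 39460 and 42710 CPM in normal and to between 71530 and 76430 CPM in high glucose, with 9 of 13 higher and 3 lower. Adipocyte markers, a lineage with strong insulin signaling, summed to between 4319 and 4600 CPM and to between 6503 and 6999 CPM, mostly from *Lpl*, with 4 of 7 tested genes higher. Of the defining adipocyte genes, *Lep* had at most 4 counts in any library, and *Adipoq* rose by 0.67 on the log2 scale (adjusted P = 9.76e-06, edgeR). *Pparg* and *Fabp4* of this list did not pass, at 0.04 and 0.11 (adjusted P = 0.587 and 0.475, edgeR). *Slc2a4*, the gene of the insulin-regulated glucose transporter, did not pass either, at -0.23 (adjusted P = 0.162, edgeR). Mural markers summed to 403 to 435.9 CPM in normal and 341.4 to 357.3 CPM in high glucose, with 2 of 7 tested genes higher and 3 lower. Macrophage markers summed to 17.54 to 19.81 and 26.89 to 27.77 CPM, with 1 of 5 tested genes higher and 3 lower. The rise of this sum came from *Cd14* alone, with means of 9.47 CPM in normal and 21.1 CPM in high glucose. The 3 lower genes were *Csf1r*, *Cd68* and *Mrc1*. Skeletal muscle markers summed to 5.59 to 7.372 and 2.478 to 2.827 CPM, with 1 of 2 tested genes lower, and keratinocyte markers overlapped between the groups at no more than 5.132 CPM. The part of these shifts in the results given here was not tested. In bulk cultures, fewer cells of a type and less RNA per cell cannot be told apart. Normal glucose replicate 1 stood apart from the other cultures on the second principal component, at 35.43 against -21.59 to 9.55. Without it, 7 of the 10 genes were called higher, as with it.

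The promoters of *Irs1* and *Irs2* are shown, paralogs whose ratio to each other did not overlap between the groups. The ratios of *Foxo4* to *Foxo3* and of *Sesn3* to *Sesn1* did not overlap either, but those promoters are not shown at the same length. Promoter windows of 300 bases, reaching 250 bases upstream of the transcription start, were available from RefSeq (GRCm38.p6) for 8 of the 10 genes, all but *Insr* and *Foxo4*. They were searched on both strands for GTAAACA, the FOXO consensus, for CAAAACA, the insulin response sequence, and for CACGTG, an E-box. The 250 bases before each start are printed 5′ to 3′ on the gene's strand with motif matches in capitals, at chr1:82291440-82291689 for *Irs1* and chr8:11008930-11009179 for *Irs2*, both on the minus strand.
Irs2: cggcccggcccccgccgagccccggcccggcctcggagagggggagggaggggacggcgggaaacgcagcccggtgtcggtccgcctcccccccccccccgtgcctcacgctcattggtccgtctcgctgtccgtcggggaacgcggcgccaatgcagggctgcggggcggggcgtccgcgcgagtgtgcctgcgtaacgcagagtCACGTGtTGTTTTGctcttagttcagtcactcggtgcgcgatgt
Irs1: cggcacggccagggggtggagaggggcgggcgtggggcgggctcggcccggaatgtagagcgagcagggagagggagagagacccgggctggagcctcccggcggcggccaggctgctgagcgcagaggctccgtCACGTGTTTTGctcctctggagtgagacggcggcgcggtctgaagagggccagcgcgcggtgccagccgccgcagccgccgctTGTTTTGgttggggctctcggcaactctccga
In *Irs2*, the E-box lies 44 to 39 bases upstream of the start, and CAAAACA follows on the opposite strand 37 to 31 bases upstream. In *Irs1*, an E-box 115 to 110 bases upstream overlaps a CAAAACA match at 111 to 105 bases, and a second match lies 32 to 26 bases upstream. Both windows therefore hold both motifs. CAAAACA was present in 6.28% of 32851 promoter windows, CACGTG in 7.15%, and both in 0.408%. The FOXO consensus GTAAACA, present in 3.65% of windows, was found among the 8 genes in *Sesn1* alone. Of the 2 *Sesn1* windows, that with its start at 41887439 held none of the motifs. In the window with its start at 41810574, the match lies on the opposite strand from base 23 after the start. The bases around it are printed from chr10:41810585-41810614, plus strand.
Sesn1: gaaccttctacTGTTTACcagccttttggg
These matches describe letters in the window and not binding. The RefSeq start of *Irs2* lies at 11008929, whereas the gene in the GENCODE annotation ends at 11008458. For *Sesn1*, the start next to the match lies at 41810574, whereas the gene in the GENCODE annotation begins at 41809935.

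Calls were made where edgeR's quasi-likelihood test gave an adjusted P below 0.05. By this test, 7 of the 10 genes were higher in high glucose, 0 were lower, and 3 did not pass. Among all 19015 tested genes, 16.9% were called higher and 14.5% lower, 31.4% in all. Of these calls 46.2% were lower, against 56.5% with upper quartile and 72.9% with library size scaling. The median log2 fold change (log2FC, high against normal glucose) was 0.46 over the 10 genes and 0.0062 over all tested genes. The groups did not overlap for 8 of the 10 genes, compared with 46.4% of all tested genes and 25.1% in the higher direction. Because the genes were chosen with results known, these counts describe them and are not independent evidence of a direction. All 10 passed the filter on low counts, with between 1185 and 48671 counts per culture. CPM values are given in the order of replicates 1 to 3.

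**Figure D1:**
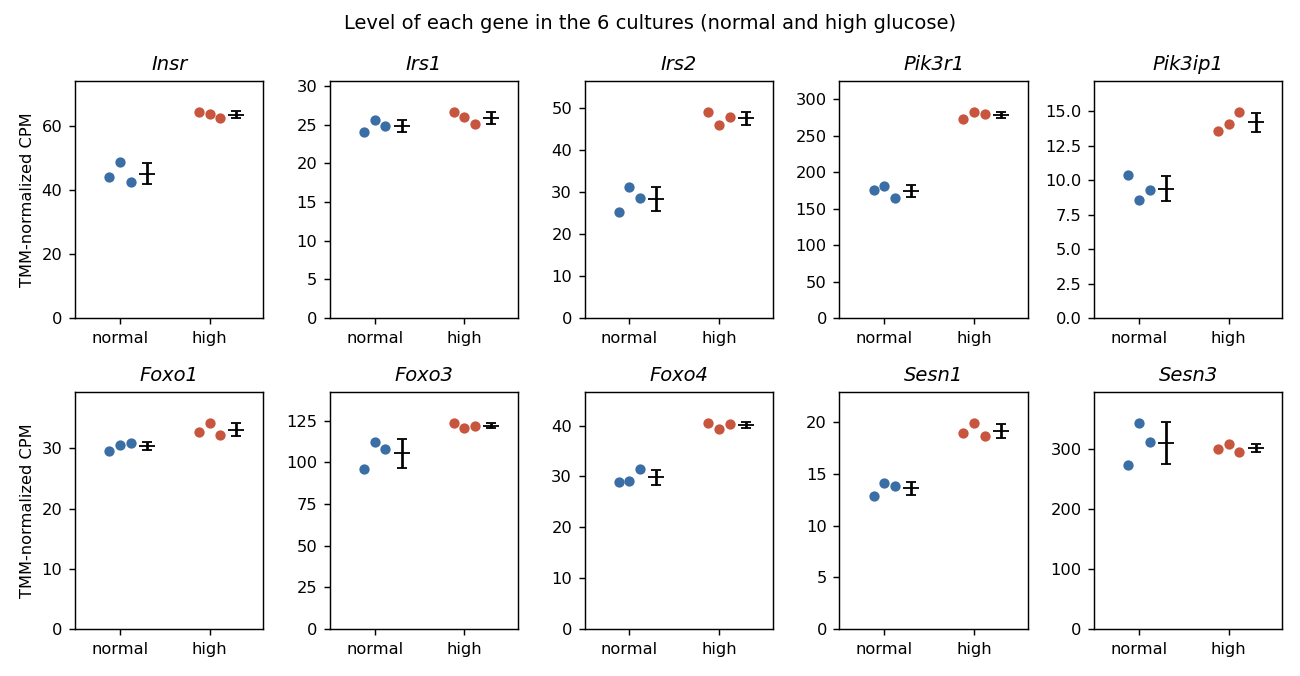
TMM-normalized CPM of each of the 10 genes in the 3 normal glucose (blue) and 3 high glucose (red) cultures, 1 point per culture, with the mean and SD in black and each axis starting at 0. Points of the groups are apart for 8 genes and intermingled for Irs1 and Sesn3.

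*Insr* (chromosome 8, 3122061 to 3279617, minus strand, GRCm38), the receptor that starts the pathway, had 44.0, 48.8 and 42.5 CPM in normal glucose and 64.3, 63.8 and 62.4 CPM in high glucose. Every high glucose culture was above every normal glucose culture. The log2FC was 0.49 (standard error 0.061, adjusted P = 0.000157), a rise of 40.7%. *Igf1r*, the related receptor for insulin-like growth factors, had 135 ± 6.08 CPM in normal and 137 ± 6.45 CPM in high glucose (SD, n = 3), a log2FC of 0.03 (adjusted P = 0.733) whose sign changed with the scaling. With the GC and length trend removed and the replicate number as a block, *Igf1r* was called lower, at -0.203 (adjusted P = 0.0311, edgeR). *Insrr*, the third receptor of the family, had at most 8 counts in any library and was not tested.

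*Irs2* (chromosome 8, 10984681 to 11008458, minus strand) showed the largest rise of the 10 genes. It had 25.3, 31.2 and 28.5 CPM in normal glucose and 49.1, 46.0 and 47.8 CPM in high glucose. All high glucose values lay well above the normal glucose values, with the lowest at 46.0 and the highest normal value at 31.2 CPM. The log2FC was 0.75 (standard error 0.074, adjusted P = 3.36e-05), or 1.68-fold. *9530052E02Rik*, which shares 162 exon bases with *Irs2* on the opposite strand, had at most 3 counts in any library. *Irs1* (chromosome 1, 82233101 to 82291416, minus strand), the paralog with the same docking function, had 24.02, 25.63 and 24.78 CPM in normal and 26.62, 25.93 and 25.04 CPM in high glucose. These values overlapped. Its log2FC was 0.06, with a 95% interval from -0.06 to 0.18 that left room for a small change in either direction (adjusted P = 0.427, edgeR). *Gm9747*, which shares 30.9% of the exon length of *Irs1* on the opposite strand, had 0 counts in all 6 libraries. *Irs3* had 1.91 ± 0.174 and 1.93 ± 0.00653 CPM (SD, n = 3), and *Irs4* had at most 2 counts in any library.

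The balance of the 2 substrates was also read as a ratio within each culture, which does not depend on how libraries are scaled. Per length of exon, *Irs2* exceeded *Irs1* by 0.61, 0.81 and 0.74 on the log2 scale in normal glucose and by 1.42, 1.36 and 1.47 in high glucose. The groups did not overlap. As a geometric mean, *Irs2* had 1.65 times the level of *Irs1* in normal and 2.66 times in high glucose, a shift of 0.69 in the log2 ratio. With 3 cultures against 3, an exact permutation test cannot give a P value under 0.1, so these ratios are given without a test.

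**Figure D2:**
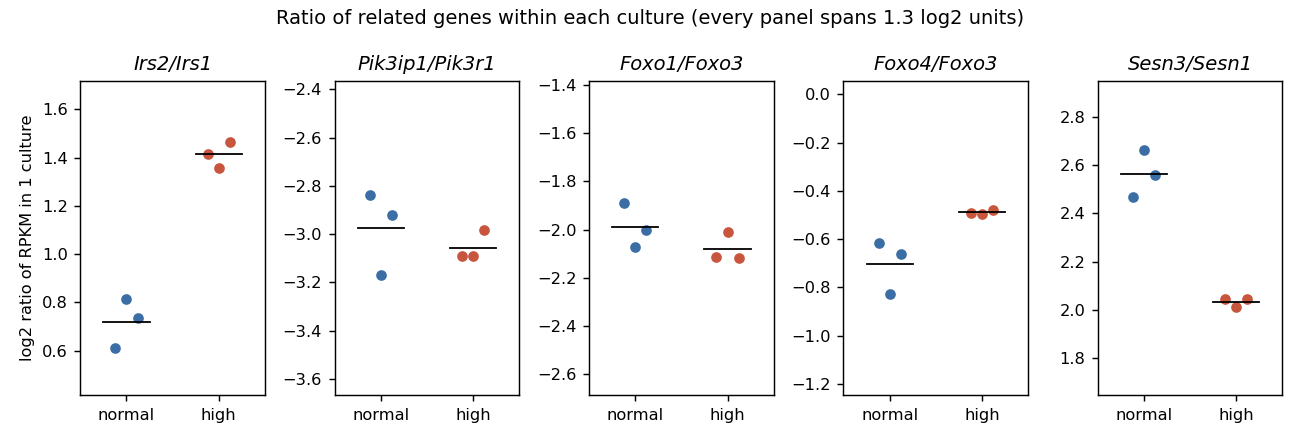
Log2 ratio of RPKM (CPM per kilobase of exon) of 5 gene pairs within each culture, 1 point per culture with a line at the group mean, each panel spanning 1.3 log2 units. Groups are apart for Irs2/Irs1, Foxo4/Foxo3 and Sesn3/Sesn1 and overlap for Pik3ip1/Pik3r1 and Foxo1/Foxo3.

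*Pik3r1* and *Pik3ip1*, which encode proteins that bind the catalytic PI3K subunit, both rose. *Pik3r1* (chromosome 13, 101680563 to 101768217, minus strand) encodes the regulatory subunits of the p85α family, which stabilize and restrain the catalytic subunit. It had 175, 181 and 165 CPM in normal glucose and 273, 282 and 279 CPM in high glucose. The groups were far apart relative to their spread, and the log2FC of 0.68 had the lowest adjusted P value of the 10 genes (standard error 0.053, adjusted P = 6.79e-06). *Pik3ip1* (chromosome 11, 3330401 to 3342971, plus strand), a transmembrane inhibitor of PI3K, had 10.4, 8.54 and 9.25 CPM in normal and 13.6, 14.1 and 14.9 CPM in high glucose. The groups again did not overlap (log2FC 0.60, standard error 0.083, adjusted P = 0.000382). *Gm12592*, which shares 2.13% of its exon length on the opposite strand, had between 31 and 57 counts. The ratio of *Pik3ip1* to *Pik3r1* within a culture overlapped between the groups, with log2 means of -2.98 ± 0.173 and -3.06 ± 0.0610 (SD, n = 3).

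The other regulatory subunit genes had different values. *Pik3r2*, which encodes p85β, had 105 ± 4.62 CPM in normal and 105 ± 3.4 CPM in high glucose (SD, n = 3; log2FC -0.01, adjusted P = 0.926). *Pik3r3*, which encodes p55γ, had 15.5, 19.3 and 17.6 CPM against 14.5, 15.5 and 14.7 CPM. Its log2FC of -0.23 was just short of the threshold (adjusted P = 0.0545), and 11 of 19 alternative analyses called it lower. *Gm49337* shares 24.3% of the exon length of *Pik3r3* on the same strand, so reads could be split between them. Of the catalytic subunits, *Pik3ca* had a log2FC of 0.12 (adjusted P = 0.13), *Pik3cb* fell by 0.37 (adjusted P = 0.0194) and *Pik3cd* rose by 0.32 (adjusted P = 0.00939) on the log2 scale. Both calls were lost without high glucose replicate 1 (adjusted P = 0.065 and 0.0581) or replicate 3 (0.0585 and 0.0583), that of *Pik3cb* also without normal glucose replicate 3 (0.0736), and that of *Pik3cd* with library size scaling (0.0573) and with the GC and length trend removed under the replicate block (0.0583, edgeR).

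*Foxo4* showed the largest rise of the 3 FOXO factors. *Foxo4* (chromosome X, 101254528 to 101260873, plus strand) had 28.8, 29.1 and 31.5 CPM in normal and 40.6, 39.4 and 40.3 CPM in high glucose. All high glucose values exceeded all normal glucose values, with a log2FC of 0.43 (standard error 0.054, adjusted P = 0.000192). *Foxo3* (chromosome 10, 42181841 to 42276755, minus strand), which acts in quiescence and stress resistance, had 95.8, 112 and 108 CPM in normal and 124, 121 and 122 CPM in high glucose. Its log2FC of 0.21 passed the test narrowly (standard error 0.063, adjusted P = 0.0275). The call was lost in 11 of 19 alternative analyses, including library size scaling (log2FC 0.10, adjusted P = 0.265) and removal of the dependence of each library on GC content and length (0.09, adjusted P = 0.154). Without normal glucose replicate 1, the log2FC of *Foxo3* was 0.13 (adjusted P = 0.0477, edgeR). The call was also lost without normal glucose replicate 3 (adjusted P = 0.0699) or without high glucose replicate 1, 2 or 3 (adjusted P = 0.132, 0.0837 and 0.115).

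*Foxo1* (chromosome 3, 52268336 to 52353221, plus strand), which restrains endothelial growth and metabolism, had 29.6, 30.5 and 30.9 CPM in normal and 32.8, 34.3 and 32.2 CPM in high glucose. The groups did not overlap, but the log2FC of 0.12 did not pass (95% interval 0.01 to 0.24 before adjustment, adjusted P = 0.0934, edgeR). *Gm20402*, which shares 674 exon bases with it on the opposite strand, had 1 count in each library. *Foxo6*, the remaining family member, had at most 38 counts in any library. The log2 ratio of *Foxo4* to *Foxo3* within a culture, per length of exon, ranged from -0.83 to -0.61 in normal glucose and from -0.50 to -0.48 in high glucose, without overlap. That of *Foxo1* to *Foxo3* overlapped, with means of -1.99 ± 0.0929 and -2.08 ± 0.0606 (SD, n = 3).

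The sestrins are stress proteins that restrain mTORC1, the nutrient-sensing kinase complex, and their genes went different ways. *Sesn1* (chromosome 10, 41809935 to 41908424, plus strand), a target of p53 as well as of FOXO factors, had 12.9, 14.1 and 13.8 CPM in normal and 18.9, 20.0 and 18.6 CPM in high glucose. The groups did not overlap, with a log2FC of 0.49 (standard error 0.062, adjusted P = 0.000186). *Sesn3* (chromosome 9, 14275067 to 14333101, plus strand), the sestrin best known as a FOXO target, had 273, 343 and 311 CPM in normal and 300, 308 and 295 CPM in high glucose. The high glucose values lay inside the normal glucose range, and the log2FC was -0.04 (95% interval -0.21 to 0.13, adjusted P = 0.744, edgeR). With the trend on GC content and length removed, *Sesn3* was called lower at -0.22 (adjusted P = 0.00301, edgeR). *Sesn2*, a target of stress-response factors such as ATF4, fell by 0.25 on the log2 scale (74.0, 81.0 and 86.9 CPM against 67.6, 66.9 and 68.3 CPM, adjusted P = 0.0112, edgeR). Per length of exon, *Sesn3* had 5.91 times the level of *Sesn1* in normal and 4.10 times in high glucose. The log2 ratio within cultures ranged from 2.47 to 2.66 and from 2.01 to 2.05, without overlap.

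**Figure D3:**
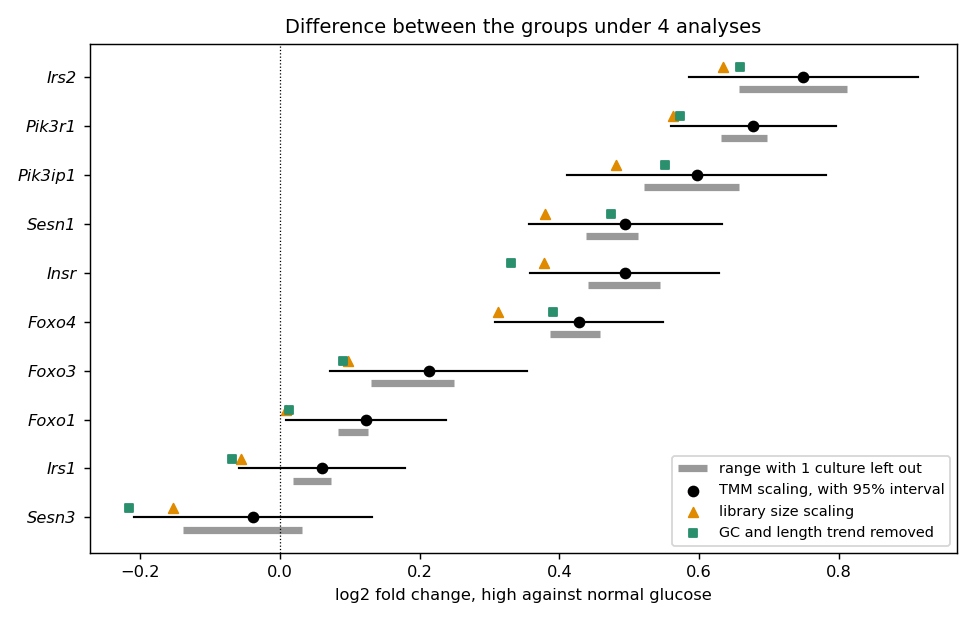
Log2 fold change of each gene in high against normal glucose with TMM scaling and its 95% interval (black), with library size scaling (triangles), with the GC and length trend removed (squares), and the range over 6 fits that each left out 1 culture (grey bars). Irs2, Pik3r1, Pik3ip1, Sesn1, Insr and Foxo4 lie above 0 in every analysis drawn, as do Foxo3 and Foxo1 with smaller log2 fold changes, while Irs1 and Sesn3 change sign.

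Of the 7 higher genes, *Insr*, *Irs2*, *Pik3r1*, *Pik3ip1*, *Foxo4* and *Sesn1* stayed called whichever of the 6 cultures was left out. Their log2FC values lay between 0.31 and 0.81 over all alternatives run. Library size scaling moved the median of all tested genes to -0.11, and on that scale the 6 genes still had log2FC values of at least 0.31.

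Levels were compared between genes only per length, as RPKM over the summed exon length of each gene. In normal glucose, *Sesn3* (20.2 ± 2.31) and *Pik3r1* (17.3 ± 0.807) were highest and overlapped, followed by *Foxo3* (13.9 ± 1.13), *Foxo4* (8.55 ± 0.415) and *Irs2* (4.48 ± 0.460 RPKM; SD, n = 3). *Foxo1* (3.50 ± 0.0770), *Sesn1* (3.42 ± 0.166) and *Insr* (3.28 ± 0.240) overlapped from neighbor to neighbor, and *Irs1* (2.71 ± 0.0881) and *Pik3ip1* (2.20 ± 0.219 RPKM; SD, n = 3) were lowest. *Foxo3* and *Foxo4* thus both exceeded *Foxo1* per length in these cultures. In high glucose, *Pik3r1* was first, at 27.6 ± 0.457 RPKM, and *Sesn3* second, at 19.7 ± 0.441 RPKM, without overlap. *Irs1* became the lowest, at 2.83 ± 0.0866 RPKM, below *Pik3ip1* at 3.32 ± 0.161 RPKM (SD, n = 3). Only *Sesn1* and *Insr* overlapped as neighbors in high glucose.

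**Figure D4:**
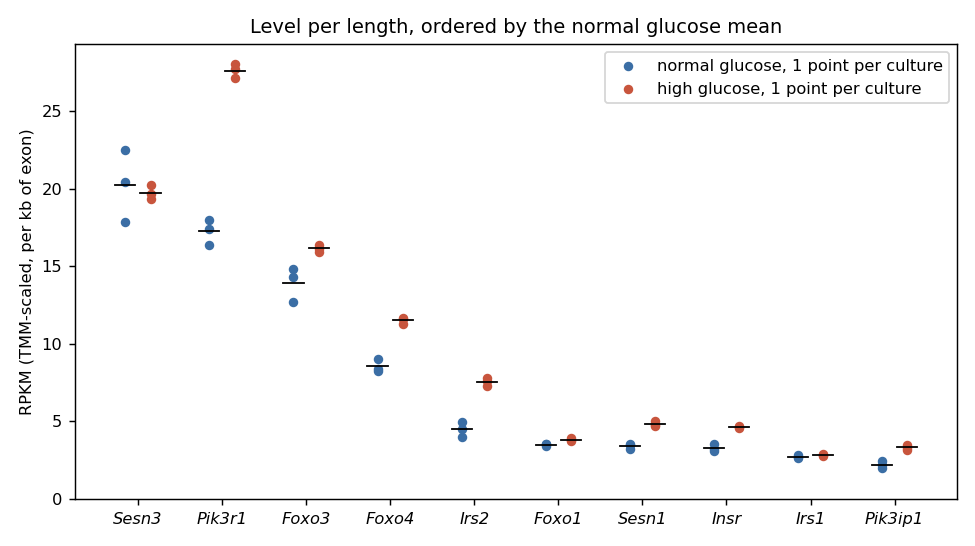
RPKM of the 10 genes, ordered by their mean in normal glucose, with 1 point per culture and a line at each group mean (blue normal, red high glucose). Sesn3, Pik3r1 and Foxo3 are the highest in both groups, and Pik3r1 passes Sesn3 in high glucose.

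The 3 genes whose profile over the 6 cultures was closest to that of *Irs2*, out of 9980 genes whose mean log2 CPM was 3 or more, were *Slc43a3*, *Alpk1* and *Birc6*. Likeness was the root mean square distance between profiles of log2 CPM, each centered on its mean, and was 0.029, 0.033 and 0.037. *Slc43a3*, a nucleobase transporter gene, had 54.2, 68.3 and 64.2 CPM in normal and 107, 102 and 108 CPM in high glucose. All 3 share with *Irs2* the rise between the groups and the low value in normal glucose replicate 1.

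The rest of the pathway was read from 5 lists written from general knowledge, also with earlier results known, in which *Rictor*, *Eif4ebp1* and *Sirt1* occur more than once. Of 24 genes for other receptors, adapters and PI3K subunits, 21 were tested, 7 were higher and 2 lower (42.9% called, against 31.4% of all genes), with a median log2FC of 0.13. The share over all genes depends on their level: it was 39.7% with a filter at a mean of 1 CPM. With that filter, 18 genes of this list were tested, 6 were higher and 2 lower. *Pik3c2b*, a class II PI3K, rose by 0.72 on the log2 scale from a low level of 36, 46 and 58 to 79, 59 and 93 counts (adjusted P = 0.0309, edgeR). Its call was lost with library size scaling (adjusted P = 0.0557), without a filter (0.0638), with DESeq2 (0.052), with the GC and length trend removed (0.0508), and without normal glucose replicate 1 or 2 (0.0793 and 0.0855) or high glucose replicate 1 or 3 (0.0736 and 0.149, edgeR). *Gab1*, a docking protein akin to the Irs proteins, rose by 0.37 (adjusted P = 0.0005, edgeR). *Pik3r5*, a regulatory subunit of the PI3K that acts below G-protein-coupled receptors, fell by 0.79 (adjusted P = 0.00737, edgeR). Its level was also low, with 66, 81 and 75 counts in normal and 41, 41 and 45 in high glucose. With library size scaling, 1 gene of this list was higher and 4 were lower. Without high glucose replicate 1 or 3, the number called dropped from 9 to 2 in each case.

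Of 27 genes for AKT, mTOR and their effectors, 26 were tested, 11 were higher and 1 was lower (46.2% called, against 31.4% of all genes, median log2FC 0.15). With a filter at a mean of 1 CPM, 8 of the 26 were higher and 1 was lower, while 39.7% of all genes were called. An excess over all genes at that level was therefore not seen for this list. *Deptor*, an inhibitor built into the mTOR complexes, more than doubled. It had 22.6, 20.7 and 18.9 CPM in normal and 46.6, 49.9 and 47.3 CPM in high glucose, a log2FC of 1.21 (standard error 0.070, adjusted P = 8.29e-07). *Tbc1d4*, the AKT substrate that controls glucose transporter traffic, rose by 0.57 (adjusted P = 0.00143, edgeR), and *Mtor* itself by 0.36 on the log2 scale (42.8, 54.8 and 56.0 CPM against 68.3, 64.7 and 64.6 CPM, adjusted P = 0.0125, edgeR). *Rps6*, a ribosomal protein whose pseudogenes could take some of its reads, fell by 0.31 (adjusted P = 0.0189, edgeR). Without normal glucose replicate 1, the log2FC of *Mtor* was 0.23 (adjusted P = 0.00399, edgeR). Without high glucose replicate 1, *Mtor* and *Rps6* lost their calls (adjusted P = 0.0653 and 0.0668, edgeR). The call of *Mtor* was also lost with library size scaling (adjusted P = 0.0602), under which 3 genes of this list were higher and 1 was lower. Without normal glucose replicate 3, high glucose replicate 1 or high glucose replicate 3, 7, 3 and 7 genes were called in place of 12.

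Of 22 genes that dampen insulin signaling, 21 were tested, 10 were higher and 2 lower (57.1% called, against 31.4% of all genes, median log2FC 0.22). With a filter at a mean of 1 CPM, 20 were tested, 10 were higher and 2 lower, while 39.7% of all genes were called. *Ptpn1* encodes PTP1B, the phosphatase that removes phosphate from the insulin receptor. It had 98.1, 101 and 108 CPM in normal and 169, 167 and 169 CPM in high glucose, a log2FC of 0.72 (standard error 0.053, adjusted P = 4.63e-06). *Ptprf*, a receptor-type phosphatase, and *Trib1*, a pseudokinase of the tribbles family, rose by 0.69 and 0.68 (adjusted P = 0.00117 and 8.32e-06, edgeR). *Trib2*, another tribbles gene, fell by 0.37, and *Grb14*, an adapter that blocks the receptor, fell by 0.22 (adjusted P = 0.000341 and 0.0179, edgeR). The call of *Grb14* was lost without high glucose replicate 1 or 3 (adjusted P = 0.0697 and 0.0503, edgeR). With library size scaling, 7 were higher and 3 lower, and with the GC and length trend removed, 10 were higher and 4 lower.

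Genes known as FOXO targets in various tissues moved in both directions. The list mixes genes that FOXO factors induce with genes that they repress, such as *Ccnd1*. Its counts by direction and its median therefore do not measure FOXO activity. Of 35 genes, 30 were tested, 12 were higher and 6 lower (60% called, against 31.4% of all genes, median log2FC 0.13). With a filter at a mean of 1 CPM, 11 of the 30 were higher and 8 lower, while 39.7% of all genes were called. *Txnip*, which limits glucose uptake and also responds to glucose through other factors, rose most, from 221 to 227 CPM in normal to 455 to 473 CPM in high glucose (log2FC 1.06, adjusted P = 1.7e-07, edgeR). *Gm15441* shares 19.4% of its exon length on the opposite strand. *Bcl2l11*, which encodes the death protein BIM, rose by 0.66, and *Sod2*, the mitochondrial superoxide dismutase, rose by 0.56 (adjusted P = 3.1e-05 and 1.47e-05, edgeR). In the other direction, *Angpt2*, an endothelial growth factor gene induced by Foxo1, fell by 1.46 on the log2 scale, from between 9.09 and 9.68 to between 3.21 and 3.58 CPM (adjusted P = 7.62e-07, edgeR). *Ccnd1*, a G1 cyclin gene that FOXO factors repress, fell by 1.40, and *Cdkn1a*, a cell cycle inhibitor gene that they and p53 induce, fell by 0.73 (adjusted P = 5.57e-08 and 4.71e-06, edgeR). *LTO1* shares 23.4% of the exon length of *Ccnd1* on the opposite strand. The liver targets *Pck1*, *G6pc* and *Igfbp1* had at most 3, 6 and 0 counts in any library. With library size scaling, 10 genes of this list were higher and 10 lower.

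**Figure D5:**
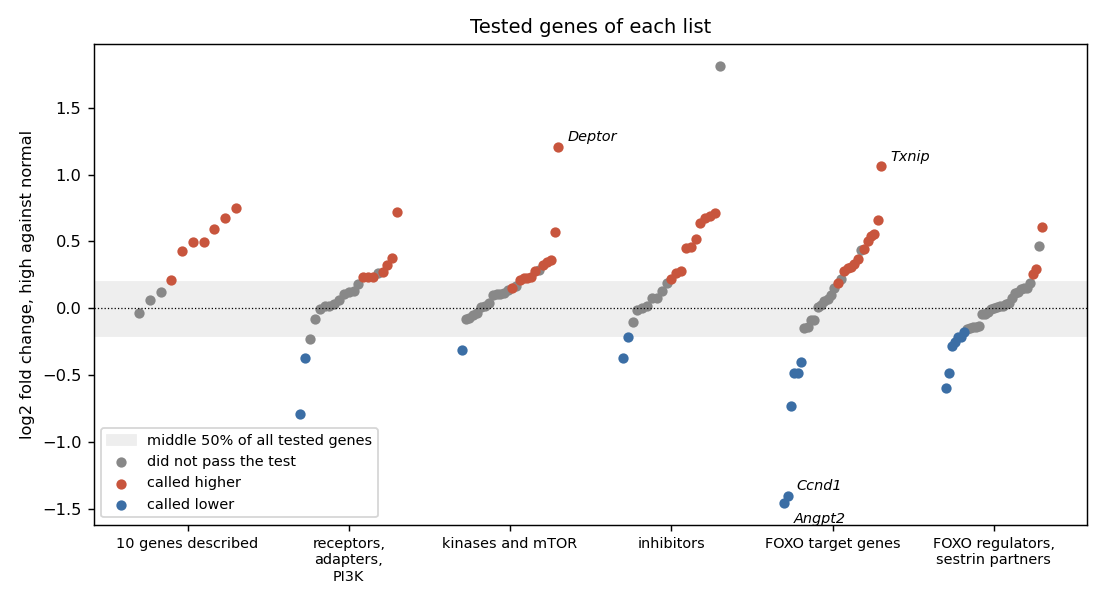
Log2 fold change in high against normal glucose of the tested genes of each list, 1 point per gene in ascending order, colored by call, with the middle 50% of all tested genes shaded. The 10 genes lie between -0.04 and 0.75, Deptor and Txnip are the only called genes above 1, Ahsg (at most 13 counts in any library) lies above 1 without passing the test, and Angpt2 and Ccnd1 lie below -1.

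Among regulators of FOXO factors and partners of the sestrins, all 33 genes were tested, 3 were higher and 7 lower (30.3% called, close to the background of 31.4%). *Ep300* and *Crebbp*, which encode acetyltransferases that modify FOXO proteins, rose by 0.60 and 0.29 on the log2 scale (adjusted P = 0.00524 and 0.0129, edgeR), and *Depdc5*, a brake on mTORC1, rose by 0.26 (adjusted P = 0.0104, edgeR). The calls of *Crebbp* and *Depdc5* were lost with library size scaling (adjusted P = 0.102 and 0.101), with the GC and length trend removed (0.258 and 0.103) and without high glucose replicate 1 (0.0889 and 0.0532, edgeR). That of *Crebbp* was also lost without normal glucose replicate 3 (adjusted P = 0.062), and that of *Depdc5* without high glucose replicate 3 (0.0699, edgeR). *Mdm2*, a ubiquitin ligase for p53 that also acts on FOXO proteins, fell by 0.60, from between 127 and 133 to between 84.7 and 87.2 CPM (adjusted P = 8.53e-06, edgeR). *Sfn*, a 14-3-3 protein, fell by 0.49 (adjusted P = 0.00577, edgeR). With library size scaling, 1 gene of this list was higher and 11 were lower, and with the GC and length trend removed under the replicate block, 1 was higher and 10 were lower. The median of this list was 0.0058 and changed sign between scalings. Without high glucose replicate 1, 6 of these genes were called in place of 10.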

How the data were processed

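Bulk RNA sequencing of poly(A) RNA was analysed for 6 cultures, 3 per glucose level, grouped by their titles. Per the study's methods, the authors trimmed reads with Trimmomatic, aligned them to GRCm38 (mm10) with HISAT2 and used StringTie to obtain reads per gene. They deposited these as counts, without normalization, for 55487 Ensembl genes. Versions, the annotation release and strand use are not given in the sources used here. The labels name TRIzol and the DNBSeq platform, whereas the methods name a QIAGEN kit and an Illumina HiSeq system.

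Symbols, positions and exon lengths came from GENCODE vM21 (GRCm38), which matched 55227 identifiers. Counts were filtered with filterByExpr (minimum count 10, minimum total 15), normalized by TMM and tested in R 4.3.3 with edgeR 4.0.16 (quasi-likelihood, Benjamini-Hochberg over 19015 genes, threshold 0.05). Standard errors came from the test statistic. Totals lay between 120192466 and 146881356 counts. Precision covers counting error and the spread of 3 cultures. CPM and RPKM used TMM-scaled library sizes. No replicate pair matched within counting noise (chi-square per degree of freedom 9.65 or more). Scripts were tested on simulated data.

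The members and lists were chosen with earlier results of these data known. Named genes were the 10 members, their paralogs, up to 3 called genes per list and direction with the largest change, the 3 nearest profiles to the member that changed most, and genes overlapping members. A gene that this rule also selected is not reported here. Names of genes overlapping listed genes, *Ahsg*, *Flt1*, *Egfl7*, *Kdr*, *Tek*, *Cdh5*, *Lpl*, *Lep*, *Adipoq*, *Pparg*, *Fabp4*, *Slc2a4*, *Cd14*, *Csf1r*, *Cd68*, *Mrc1* and the liver targets were added after values were seen. Alternatives were other scalings, filters, thresholds and tests (DESeq2 1.42.0, likelihood ratio), halved counts, the replicate block, trends on GC content and length removed with mgcv 1.9.3, and each culture left out. Replicate numbers are shared between the groups, and no source says that they pair cultures.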

Additional observations from a re-analysis of the deposited data

How the results depend on the processing

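Over 19 alternatives, 26 of 59 results kept their direction and side of the threshold, or stayed within 1.5 times for counts, in each that was run, among them *Irs2*, *Pik3r1*, *Pik3ip1* and *Foxo1*. The 26 include the 5 ratios within cultures, which were run only with halved counts and with each culture left out. A ratio was taken as kept if its shift moved by less than the larger SD of the groups. The cause of changes was not tested unless stated. With a minimum fold change of 1.5, by construction, *Insr* (0.49), *Sesn1* (0.49), *Foxo4* (0.43) and *Foxo3* (0.21) were no longer called. That setting left 1165 lower and 895 higher genes (2060 in all), and 2, 1, 4, 5 and 2 called genes in the lists of receptors, kinases, inhibitors, FOXO targets and FOXO regulators. An adjusted p under 0.01 left 1671 lower and 1946 higher genes (3617 in all), and 5, 4 and 5 called genes among receptors, kinases and FOXO regulators, and removed *Foxo3* (0.21). Scaling by library size gave 4884 genes called lower and 1819 called higher, with 5 receptor and 4 kinase genes called. *Foxo3* was at 0.17 with upper quartile scaling, 0.10 with library size scaling, 0.19 without a filter, and 0.091 with the GC and length trend removed (0.092 with the block). Without a filter, and with the trend removed under the block, 7 kinase genes were called.

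*Irs1* was at -0.055 with library size scaling, -0.069 with the trend removed and -0.069 with the block added, and *Sesn3* at -0.22 with the trend removed and at -0.21 under the block as well. Leaving out each culture gave between 2048 and 3065 lower and between 1988 and 3149 higher genes (4036 to 6214 in all), 2 to 9 receptor, 3 to 12 kinase, 9 to 13 inhibitor, 16 to 19 target and 6 to 13 regulator genes. It gave log2 fold changes of 0.13 to 0.25 for *Foxo3* and -0.14 to 0.032 for *Sesn3*. *Igf1r* was at -0.013, -0.085, -0.21 and -0.203 under upper quartile scaling, library size scaling, the trend removed and the trend removed with the block, and between -0.025 and 0.046 with a culture left out. *Irs3* was at -0.024, -0.097, -0.023 and -0.0145 under the same settings, -0.0024 without a filter, -0.0079 with halved counts and between -0.066 and 0.072 with a culture left out. *Pik3r2* lay between -0.0515 and 0.0159 there.

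Across genes, the deviations of cultures with the same number had correlations of -0.0243, -0.00185 and 0.00829, so the numbers were not taken as pairs. With the replicate number as a block, 7 of the 10 genes were higher, with a log2 fold change of 0.75 for *Irs2* and 0.22 for *Foxo3* (adjusted p = 0.0439, edgeR), and it changed no call among the 10 genes. *Pik3r3* was then called lower (adjusted p = 0.0489, edgeR). Few counts limited what could be read from genes such as *Insrr*, *Irs4* and *Foxo6*.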
